A study of Mus musculus with 15 samples.

Results

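The replication-dependent histone genes were measured in lung metastases of B16-F10.1, a pigmented mouse melanoma line, in mice on diets with differing methionine content. Members were all genes whose symbol follows the Hist1 to Hist4 naming scheme, or its newer equivalent, for histones H1, H2A, H2B, H3 and H4, with pseudogenes left out. Of 67 coding symbols that match, 13 had IDs that were not analysed here, so 54 of the 37620 gene IDs in the count tables were members: 6 encode H1, 16 H2A, 13 H2B, 7 H3 and 12 H4. The Hist1 cluster on chromosome 13 holds 43 of them, the Hist2 cluster on chromosome 3 holds 9 and the Hist3 cluster on chromosome 11 holds 2.

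The host animals were male C57BL/6J mice aged 8 weeks, each given 100000 cells by tail vein and left for 21 days while lung metastases formed. The deficient diet had 0% methionine (n = 3 libraries), the restricted diet 25% of normal (n = 3), the adequate diet the normal amount (n = 3) and the supplemented diet 300% (n = 6). Feeding lasted 2 weeks for the deficient, restricted and adequate diets; the supplemented group is known from its sample labels alone. All groups received the same tumour line and no arm was free of tumour. The labels do not say whether libraries came from separate mice, and the p-values then measure the spread between libraries, which may be technical.

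Replication-dependent histone genes supply the histones that package newly copied DNA, and they are transcribed mainly in S phase. Their mRNAs usually end in a stem-loop in place of a poly(A) tail. The stem-loop is bound by SLBP, and the end is cut with the help of the U7 small nuclear RNP. The libraries were made from total RNA after removal of ribosomal RNA, per the labels' protocols, without selection for poly(A), so these mRNAs were within reach of the assay.

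The stem-loop is shown first because it marks the family and differs between its classes. A search of GENCODE M21 transcripts (GRCm38) for a perfect 6-base stem that begins with GG and encloses a 4-base loop that begins with TT found it in 37 of 54 members and in 93 of 21847 other protein-coding genes (0.426%). In each of the 37 members it began 25 to 62 bases after the last coding base. Of the 17 members without a match, 7 have gene models that extend at most 20 bases beyond the coding part. Capitals mark the 16 bases of the hairpin, written 5′ to 3′ on the strand of the gene.

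Hist1h1c: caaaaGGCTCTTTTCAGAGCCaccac
Hist2h2aa1: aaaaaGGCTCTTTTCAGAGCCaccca
Hist1h2bb: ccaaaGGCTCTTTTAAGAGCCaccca
Hist1h3c: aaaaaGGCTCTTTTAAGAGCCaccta
Hist1h4d: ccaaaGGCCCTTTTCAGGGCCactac
Hist1h4j: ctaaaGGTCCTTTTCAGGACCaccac
Hist2h4: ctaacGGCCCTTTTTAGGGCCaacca

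In this order the 7 sites lie at chr13:23739507-23739532 on the plus strand, chr3:96246027-96246052 on the plus strand, chr13:23747198-23747223 on the plus strand, chr13:23745042-23745067 on the minus strand, chr13:23581945-23581970 on the plus strand, chr13:21735432-21735457 on the plus strand and chr3:96262934-96262959 on the minus strand (GRCm38), each in the 3′ UTR of a gene model. Among members with a match, the stem GGCTCT stood in 4 H1, 9 H2A, 8 H2B and 6 H3 genes. The H4 genes carried other stems, GGCCCT in 8 genes and GGTCCT in Hist1h4b and Hist1h4j.

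Promoters also differ between classes. RefSeq promoters (GRCm38.p6, the 250 bases before each start) were matched for 47 members and searched on both strands for 3 motifs. The octamer ATTTGCAT, a binding motif of POU factors such as Pou2f1, was in 5 of 9 H2B and 6 of 15 H2A promoters, in 0 of 6 H1, 0 of 6 H3 and 0 of 11 H4 promoters, and in 1.78% of 26978 other genes. CCAAT was in every H1, H2A and H2B promoter (6 of 6, 15 of 15 and 9 of 9), in 4 of 6 H3 and 3 of 11 H4 promoters, and in 37.4% of other genes. TATAAA was in 24 of 47 members and 14.3% of other genes. The 150 bases before the start are given for the H2B gene and the H4 gene with the highest mean level, with matches to these motifs in capitals.

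Hist1h2bb: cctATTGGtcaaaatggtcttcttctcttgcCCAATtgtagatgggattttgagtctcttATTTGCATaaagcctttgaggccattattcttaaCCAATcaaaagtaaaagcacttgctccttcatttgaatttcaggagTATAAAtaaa
Hist1h4d: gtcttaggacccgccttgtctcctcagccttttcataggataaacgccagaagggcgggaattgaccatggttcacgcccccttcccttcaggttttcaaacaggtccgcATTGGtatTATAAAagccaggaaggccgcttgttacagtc

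The Hist1h2bb stretch is chr13:23746584-23746733 and the Hist1h4d stretch chr13:23581418-23581567, both on the plus strand of GRCm38.p6. The octamer of Hist1h2bb begins 90 bases before the start. A match describes letters only; binding was not measured.

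Levels between genes are compared in TPM, the authors' deposited length-scaled unit, and between libraries in CPM, counts scaled to a common library size with TMM factors. Hist1h4d, an H4 gene, had the highest mean level of the members named here, 1097 TPM over 15 libraries, followed by the H3 gene Hist2h3b at 643.9 TPM and the H4 gene Hist1h4h at 530.9 TPM. The highest H2B genes were Hist1h2bb at 465.3 TPM and Hist1h2bc at 289.9 TPM. The H2A pair Hist2h2aa1 and Hist2h2aa2 stood at 346.5 TPM each with identical counts in all 15 libraries, so their values cannot be told apart. Hist1h3c followed at 173.7 TPM. The highest linker histone genes in TPM, Hist1h1e at 118.6 TPM and Hist1h1c at 77.1 TPM, lay below these core histone genes. Ranks in TPM depend on gene-model length. Hist1h1d, with a GENCODE M21 transcript of 7425 bases, averaged 27.5 TPM in restricted libraries, against 133.2 TPM for Hist1h1e (1930 bases). In CPM Hist1h1d had the higher mean of the pair in each diet, with 219.9 against 177.7 CPM in restricted libraries. At the other end, Hist1h2br held 0 counts in all 15 libraries, and the H2A gene Hist1h2aa ran from 0 to 1.67 CPM; these 2 genes did not pass the filter on low counts and the other 52 did. RSEM split reads among copies: 48 members had a fractional count in at least 1 library (further than 0.005 from a whole number), against 32.9% of all genes with counts, so the values of single members are less certain than their sums.

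The 54 members together took 58823 to 209208 of the 13107649 to 29994249 counts per library. Their summed level was 7387, 6106 and 4011 CPM in the deficient libraries, 6873, 8230 and 7738 CPM in the restricted, 11810, 3952 and 6406 CPM in the adequate, and 7763, 7381, 4247, 4918, 7405 and 7275 CPM in the supplemented libraries. The restricted libraries lay close together, the adequate libraries held both the highest and the lowest sum of all 15, and every group overlapped the adequate group. Means were 5835 ± 1705 CPM in deficient, 7614 ± 687 CPM in restricted, 7388 ± 4018 CPM in adequate and 6498 ± 1508 CPM in supplemented libraries (SD, n = 3, 3, 3 and 6). These are bulk samples, so fewer tumour cells and less histone RNA per tumour cell cannot be told apart.

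**Figure D1:**
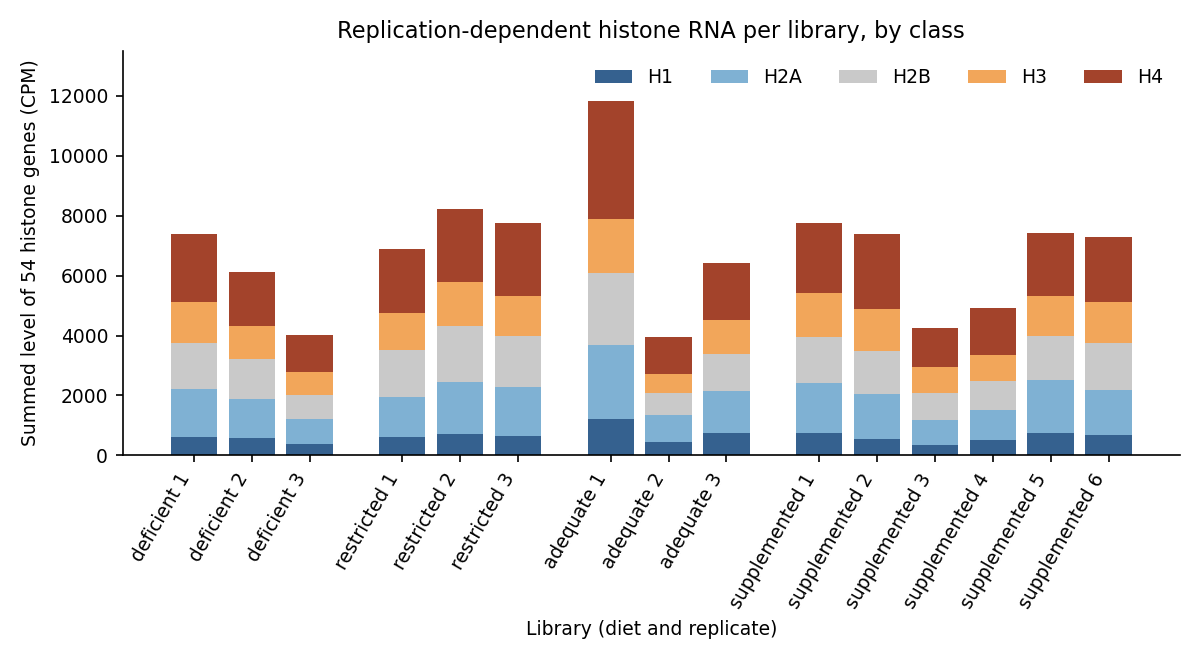
Bars give the summed CPM of the 54 histone genes in each of 15 libraries, grouped by diet, with a colour for each histone class. Adequate replicate 1 reached 11810 CPM and adequate replicate 2 3952 CPM, while the 3 restricted libraries sat between 6873 and 8230 CPM.

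The classes moved as one block from library to library. H4 genes made up 28.03% to 33.9% of the summed CPM in the 15 libraries, H2A 19.3% to 23.9%, H2B 18.6% to 22.8%, H3 15.2% to 20.2% and H1 7.61% to 11.6%. The sum across all members varied more than any of these shares.

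Adequate replicate 1 stood apart. It had the highest level of 32 of the 53 members with counts and of 29 of the 33 members whose mean CPM was at least 20. In that library protein-coding genes took 49.1% of counts, against 67.7% to 82.5% in the other 14, and IDs without a symbol took 40.3%, against 12.3% to 26.0%. Short transcripts were high there: relative to the other adequate libraries, the median log2 difference was 0.80 for 222 protein-coding genes under 600 bases, 0.29 for 4220 genes of 1000 to 2000 bases and -0.59 for 2621 genes of 4000 bases or more. The median over 52 members was 1.35. On the TPM scale the same library had 4516 TPM of histone RNA, among the lowest of all. The TPM sums were 6508, 6280 and 5141 in deficient, 7288, 8310 and 8914 in restricted, 4516, 4136 and 6568 in adequate, and 8124, 8128, 4978, 5458, 12280 and 7704 in supplemented libraries. On this scale the restricted libraries were all above the adequate libraries, and the mean was 8171 ± 822 TPM in restricted and 5073 ± 1308 TPM in adequate libraries (SD, n = 3 each). In CPM the means of these groups were 7614 and 7388, within their spread. The part that library composition plays in this was not tested.

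**Figure D2:**
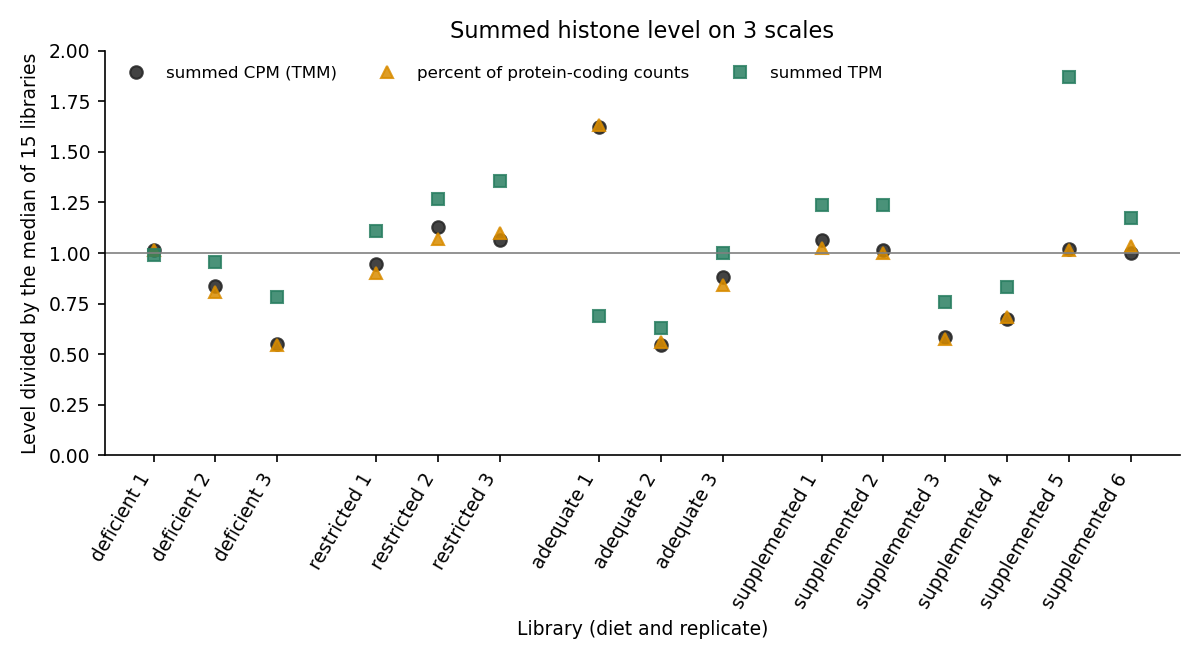
Points give the summed histone level of each library on 3 scales, each divided by its median over 15 libraries. The scales part most in adequate replicate 1, which is highest in CPM (11810) and low in TPM (4516), and in supplemented replicate 5, which is highest in TPM (12280).

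Deficient replicate 3 was the lowest library for 14 of 53 members and adequate replicate 2 for 20. Deficient replicate 3 also had the highest level of alveolar type 2 cell markers, a mean log2 CPM over 10 genes of 8.67, with 6.19 and 4.11 in the other deficient libraries, 1.24 to 5.60 in restricted, 4.29 to 6.24 in adequate and -0.31 to 6.94 in supplemented libraries. Its melanocyte marker level, 9.48, was the lowest of the 15, where the range was 9.48 to 10.46 and all 10 markers were detected. Supplemented replicate 5 had the lowest alveolar level and a muscle marker level of 7.41. The part that lung or muscle RNA plays in the histone values was not tested beyond the fits named below.

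**Figure D3:**
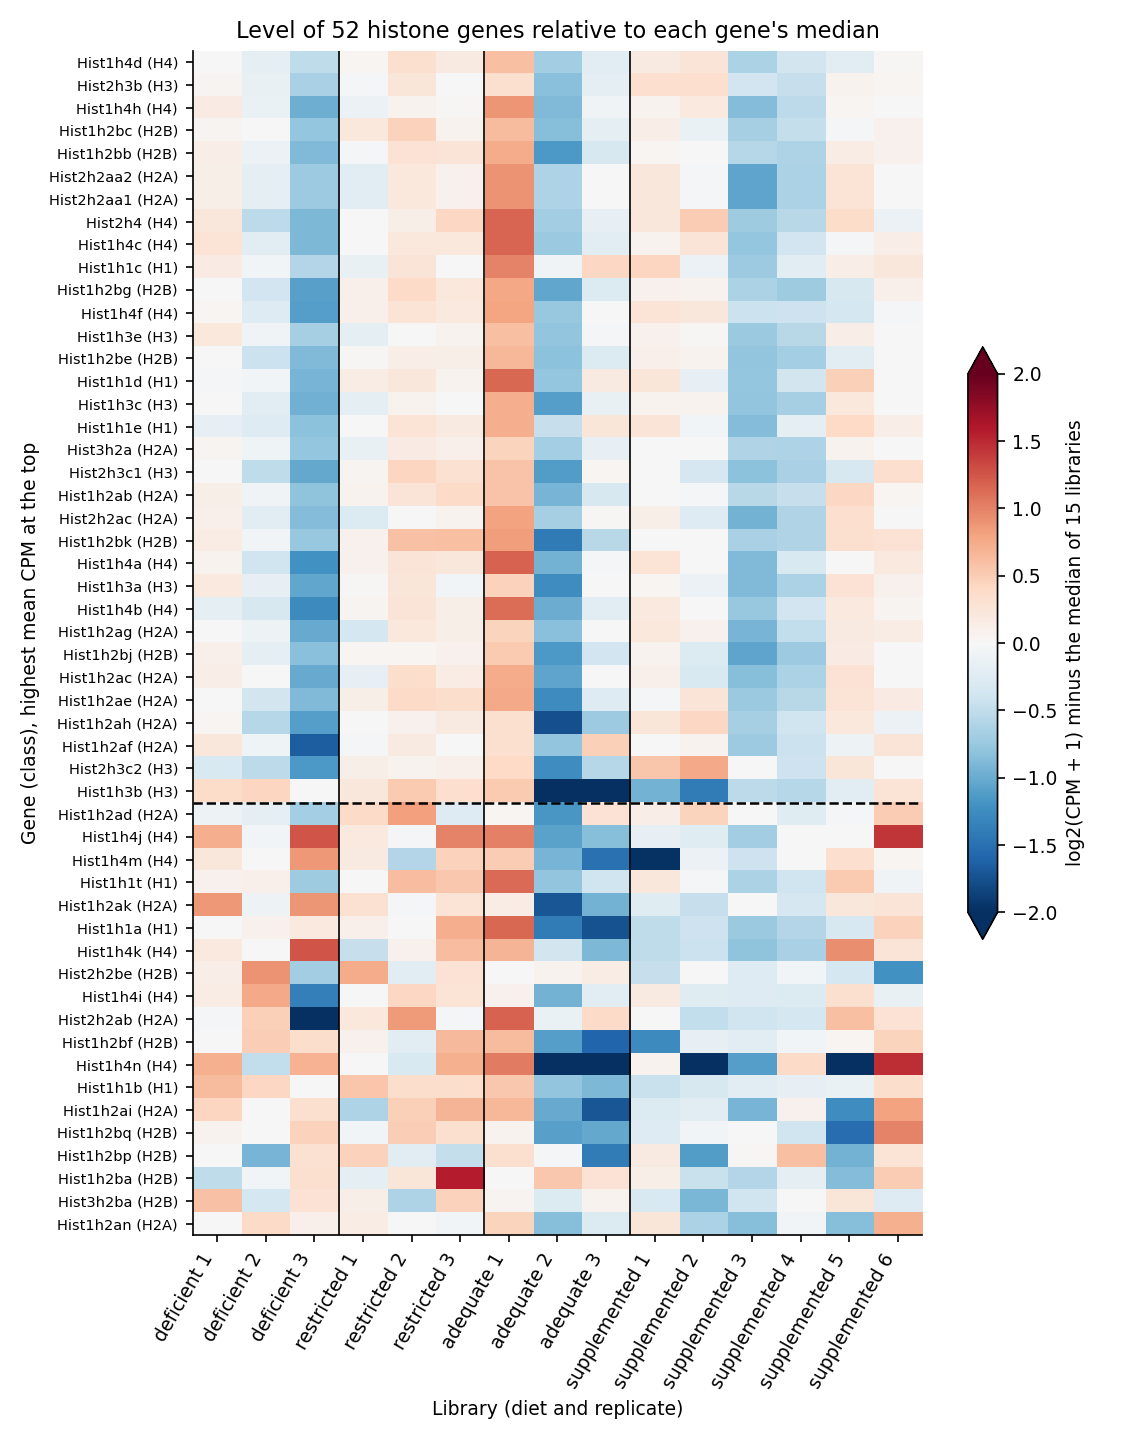
Each row is 1 of 52 histone genes, ordered by mean CPM, and each column a library; colour gives log2(CPM + 1) minus the gene's median over 15 libraries. Above the dashed line (mean CPM of at least 20) the rows share one pattern, high in adequate replicate 1 and low in deficient replicate 3, adequate replicate 2 and supplemented replicate 3; below it several rows are instead high in deficient replicate 3.

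The split by level is plain in that plot. The 33 members with a mean CPM of at least 20 summed to 5697 ± 1710 CPM in deficient, 7472 ± 683 CPM in restricted, 7285 ± 3950 CPM in adequate and 6390 ± 1495 CPM in supplemented libraries (SD, n = 3, 3, 3 and 6). The 21 lower members summed to 139.1, 125.6 and 146.6 CPM in deficient, 129.2, 132.5 and 162.8 CPM in restricted, 183.0, 55.2 and 70.2 CPM in adequate, and 80.7 to 164.6 CPM with a median of 96.1 CPM in supplemented libraries. Deficient replicate 3, lowest of its diet among the high members, was the highest of its diet here. The member just above that level is Hist1h3b at 20.8 CPM and the member just below it Hist1h2ad at 16.1 CPM.

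The first comparison asks how tumours on the deficient diet differed from those on the adequate diet. No histone gene passed the test, and the abundant genes lay mostly lower and the scarce ones mostly higher in deficient libraries. edgeR's quasi-likelihood test called 0 of 52 members, where it called 0.00625% of the 16001 genes tested. DESeq2 called 0 members, where it called 3.66% of genes. In edgeR 1 of 52 members had an unadjusted p under 0.05, where 2422 of 16001 genes did. The median log2 fold change was -0.19 with 17 members above 0, beside 0.04 over all genes. Of the 33 high members 31 were below 0 and of the 19 lower members tested 15 were above 0. Hist1h2ak, an H2A gene, had 15.96, 7.68 and 16.1 CPM in deficient and 9.26, 1.86 and 3.82 CPM in adequate libraries. The groups overlapped, and its log2 fold change was 1.42 (SE 0.46, edgeR adjusted p = 0.195). Hist1h1c, the gene of linker histone H1.2, had 260.5, 223.0 and 154.2 CPM in deficient and 461.2, 220.4 and 310.1 CPM in adequate libraries, which differed by -0.64 on the log2 scale (SE 0.30, adjusted p = 0.331 by edgeR). Hist1h1e, the gene of H1.4, had 142.3, 133.6 and 89.6 CPM in deficient and 263.5, 115.7 and 189.6 CPM in adequate libraries, which differed by -0.64 on the log2 scale (SE 0.31, adjusted p = 0.346 by edgeR). No member had separate groups in this comparison, where 7.91% of all genes were higher and 7.96% lower in every deficient library than in every adequate one.

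The direction of the family in this comparison depended on adequate replicate 1, and leaving out deficient replicate 3 brought its median close to 0. Without adequate replicate 1 the median log2 fold change turned to 0.24 with 42 of 53 members above 0, and edgeR called 1 member, Hist1h3b, where 0.024% of all genes were called. Without deficient replicate 3 the median was -0.005 with 26 of 53 above 0. Without adequate 1, supplemented 5 and deficient 3 together, Hist1h3b was again the 1 member called, where 0.0306% of all genes were.

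The restricted diet was set against the adequate diet next. No histone gene passed with all libraries, and Hist1h3b stood well above the level of adequate replicates 2 and 3 in every restricted library. edgeR called 0 of 52 members and 0% of all genes, and DESeq2 called 0 members and 0.819% of genes. In edgeR 0 members had an unadjusted p under 0.05, where 1468 of 16001 genes did. The median log2 fold change of members was 0.22 with 37 above 0, beside 0.00 over all genes, and all 12 H2B genes tested were above 0. Hist1h3b, an H3 gene, had 27.3, 33.5 and 29.5 CPM in restricted and 33.7, 3.06 and 1.41 CPM in adequate libraries. Adequate replicate 1 lay at the restricted level and the other adequate libraries far below it. With all libraries its log2 fold change was 1.25 (SE 0.76, edgeR adjusted p = 0.676); without adequate replicate 1 it was 3.73 (SE 0.49, edgeR adjusted p = 0.0169). In the deficient comparison without that library Hist1h3b had a difference of 3.64 on the log2 scale (SE 0.49, adjusted p = 0.0231 by edgeR), with 30.2, 31.3 and 23.1 CPM in deficient libraries. Its counts were fractional in 15 of 15 libraries, as RSEM gives where reads match more than 1 gene, so which copy holds these reads is uncertain. Hist1h1b, the gene of linker histone H1.5, had 5.14, 4.34 and 4.32 CPM in restricted and 5.04, 1.40 and 1.23 CPM in adequate libraries, which differed by 0.85 on the log2 scale (SE 0.51, adjusted p = 0.670 by edgeR). Hist1h2ak had 10.5, 8.17 and 10.3 CPM in restricted libraries, 0.96 above the adequate group on the log2 scale (SE 0.46, edgeR adjusted p = 0.560). No member had separate groups, where 8.37% of all genes were higher and 8.27% lower in every restricted library. Hist1h3b, Hist1h1b and Hist1h2ak were all low in adequate replicates 2 and 3. Without adequate replicate 1 the median of members was 0.68 with 52 of 53 above 0, and without adequate replicate 2 it was -0.06. Without adequate replicate 1 edgeR called Hist1h3b as the 1 member, where 0.03% of all genes were called. Without adequate 1, supplemented 5 and deficient 3 together, it called Hist1h3b and the linker gene Hist1h1a, where 0.404% of all genes were called. Hist1h1a, whose counts were whole in every library, had 9.56, 8.93 and 15.4 CPM in restricted and 20.9, 2.76 and 1.96 CPM in adequate libraries. In that smaller fit it differed by 2.23 on the log2 scale (SE 0.44, adjusted p = 0.0485 by edgeR).

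In the supplemented against the adequate diet no histone gene passed, and most abundant genes had a log2 fold change below 0 (27 of 33). edgeR called 0 of 52 members and 0% of all genes, and DESeq2 called 0 members and 0.856% of genes. In edgeR 0 members had an unadjusted p under 0.05, where 1563 of 16001 genes did. The median log2 fold change was -0.12 with 18 members above 0, beside 0.03 over all genes, and it turned to 0.41 with 47 of 53 above 0 without adequate replicate 1. Hist1h1c had 140.0 to 311.0 CPM with a median of 234.0 CPM in supplemented libraries, which overlapped the adequate range, at -0.51 against the adequate group on the log2 scale (SE 0.25, adjusted p = 0.533 by edgeR). Hist2h3c2, an H3 gene, had 34.7 to 79.4 CPM with a median of 51.2 CPM in supplemented and 62.2, 19.3 and 31.3 CPM in adequate libraries, which differed by 0.56 on the log2 scale (SE 0.32, adjusted p = 0.594 by edgeR). No member had separate groups, where 2.14% of all genes were higher and 2.24% lower in every supplemented library. Hist1h2ak had 5.78 to 10.2 CPM with a median of 7.59 CPM in supplemented and 9.26, 1.86 and 3.82 CPM in adequate libraries, which differed by 0.67 on the log2 scale (SE 0.41, adjusted p = 0.612 by edgeR).

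**Figure D4:**
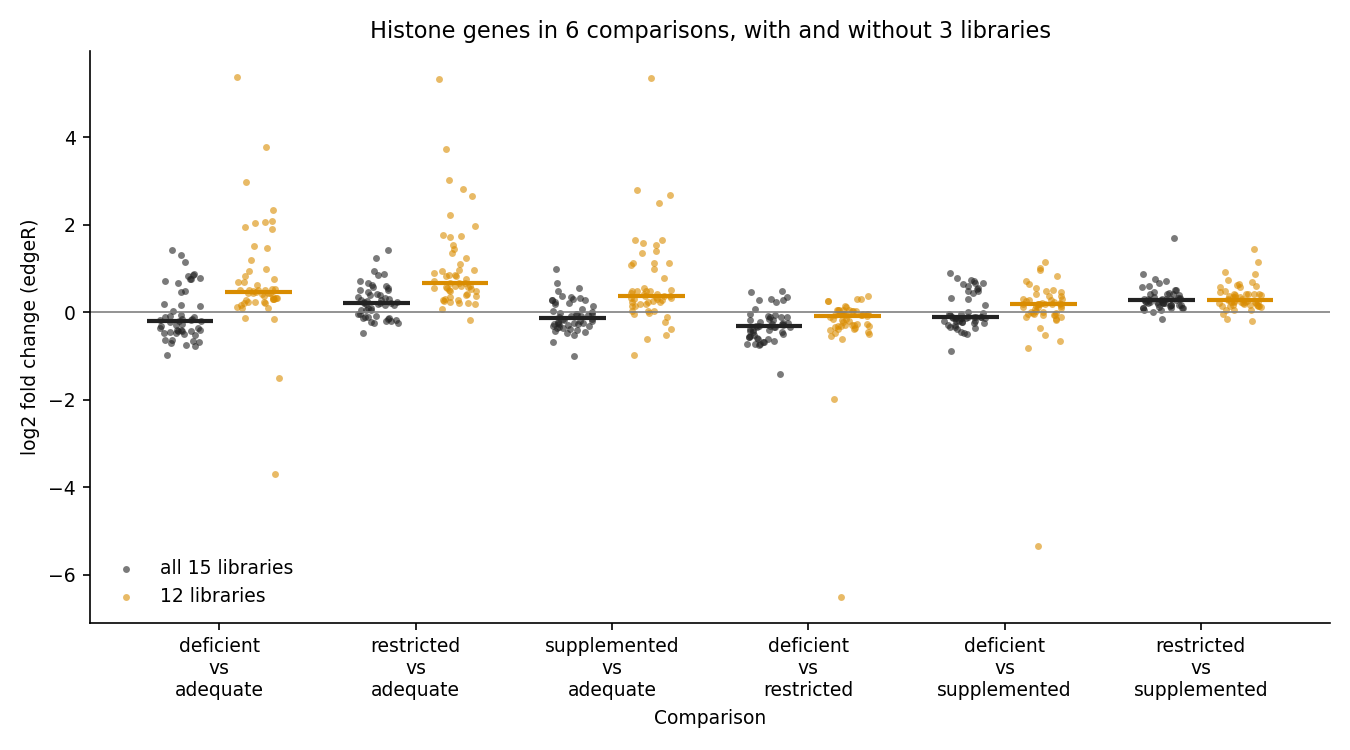
Each point is a histone gene's edgeR log2 fold change in 1 of 6 comparisons, with a bar at the median; dark points use all 15 libraries and orange points leave out adequate 1, supplemented 5 and deficient 3. The medians against the adequate diet change sign or size (deficient -0.19 with all libraries and 0.47 without the 3, supplemented -0.12 and 0.37), while restricted against supplemented is 0.28 and 0.29.

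The deficient diet was then set against the restricted diet. No histone gene passed, but every abundant histone gene lay lower on average in deficient libraries, H3 and H4 genes among them. edgeR called 0 of 52 members and 0% of all genes, and DESeq2 called 0 members and 0.0562% of genes. In edgeR 0 members had an unadjusted p under 0.05, where 1191 of 16001 genes did. The median log2 fold change of members was -0.32 with 8 above 0, beside 0.02 over all genes. All 33 high members were below 0. This was the comparison in which members had separate groups: 12 of 52 (23.1%) were lower in every deficient library than in every restricted library, where 6.38% of all genes were. They were the linker genes Hist1h1d and Hist1h1e, the H2A gene Hist1h2ae, the H2B genes Hist1h2bc, Hist1h2be and Hist1h2bg, the H3 genes Hist2h3c1 and Hist2h3c2, and the H4 genes Hist1h4a, Hist1h4b, Hist1h4d and Hist1h4f. No member was higher in every deficient library, against 4.71% of all genes. Because members vary together from library to library, the 12 lower members do not count as 12 separate observations. Some gaps were narrow: Hist1h4a reached 97.63 CPM in deficient libraries, and its lowest restricted value was 98.35 CPM.

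Hist2h3c2 had 37.9, 32.2 and 20.6 CPM in deficient and 51.0, 49.0 and 50.0 CPM in restricted libraries, which differed by -0.72 on the log2 scale (SE 0.37, adjusted p = 0.696 by edgeR). The restricted values lay within 2 CPM of each other. Hist2h3c1, another H3 gene of the Hist2 cluster, had 158.2, 110.3 and 76.3 CPM in deficient and 162.1, 212.5 and 193.2 CPM in restricted libraries, which differed by -0.72 on the log2 scale (SE 0.38, adjusted p = 0.702 by edgeR). Hist1h2ad, an H2A gene, had 14.2, 13.2 and 9.19 CPM in deficient and 20.2, 27.5 and 12.6 CPM in restricted libraries, which differed by -0.72 on the log2 scale (SE 0.37, adjusted p = 0.696 by edgeR), and here the groups overlapped. Hist1h4d had 662.1, 577.9 and 463.9 CPM in deficient and 682.3, 828.8 and 749.1 CPM in restricted libraries, which differed by -0.41 on the log2 scale (SE 0.30, adjusted p = 0.820 by edgeR). In TPM the same gene stood at 968 ± 8.92 in deficient and 1327 ± 120 in restricted libraries (SD, n = 3 each). Without deficient replicate 3, the library with the highest alveolar marker level, the median of members was -0.09 with 15 of 53 above 0. With the alveolar marker level as a covariate it was -0.26 with 7 of 52 above 0. The melanocyte list was also below 0 in this comparison in 10 of 10 genes, with a median of -0.35. The muscle list was below 0 in 4 of 4 tested genes, with a median of -0.91. The remaining cell type lists were above 0 in every tested gene: alveolar type 2 with a median of 2.99 over 10 genes, alveolar type 1 with 2.92 over 8, endothelial with 1.45 over 8, erythroid with 2.61 over 4, lymphocyte with 1.78 over 7 and macrophage with 0.52 over 7. Their part in the histone values was not tested beyond that covariate. Over all members, the summed TPM of every deficient library (5141 to 6508) lay below that of every restricted library (7288 to 8914), while in CPM deficient replicate 1, at 7387, lay above restricted replicate 1, at 6873.

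In the deficient against the supplemented diet no histone gene passed, and Hist2h3c2 had the smallest p. edgeR called 0 of 52 members and 0% of all genes, and DESeq2 called 0 of both. In edgeR 1 member, Hist2h3c2, had an unadjusted p under 0.05, where 872 of 16001 genes did. The median log2 fold change was -0.11 with 17 members above 0, beside 0.02 over all genes, and 0.11 with 39 of 53 above 0 without deficient replicate 3. Hist2h3c2 had 37.9, 32.2 and 20.6 CPM in deficient and 34.7 to 79.4 CPM in supplemented libraries, which differed by -0.87 on the log2 scale (SE 0.33, adjusted p = 0.870 by edgeR). No member had separate groups, where 1.01% of all genes were higher and 0.9% lower in every deficient library. Hist1h2ak had 15.96, 7.68 and 16.1 CPM in deficient and 5.78 to 10.2 CPM in supplemented libraries, which differed by 0.75 on the log2 scale (SE 0.38, adjusted p = 0.870 by edgeR). Hist2h2be, an H2B gene with a long 3′ part in its gene model, had 8.26, 14.7 and 4.19 CPM in deficient and 2.63 to 7.45 CPM with a median of 5.82 CPM in supplemented libraries, which differed by 0.68 on the log2 scale (SE 0.37, adjusted p = 0.870 by edgeR).

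On the CPM scale, restricted against supplemented gave the most even direction of the 6 comparisons. Nearly every histone gene was slightly higher in restricted libraries, and none passed the test. edgeR called 0 of 52 members and 0% of all genes, and DESeq2 called 0 of both. In edgeR 0 members had an unadjusted p under 0.05, where 349 of 16001 genes did. Nonetheless 51 of 52 members were above 0, with a median of 0.28, beside -0.01 over all genes; the exception was Hist2h3c2 at -0.15. With each library left out in turn at least 46 members stayed above 0 and the median ran from 0.18 to 0.33. No member had separate groups, where 1.32% of all genes were higher and 0.787% lower in every restricted library. Members vary together from library to library, so their number does not count as 51 separate observations. Cell type lists also lay mostly to one side of 0 here: the tested genes were below 0 in 10 of 10 for alveolar type 2 (median -1.40), 8 of 8 for alveolar type 1 (median -1.27), 4 of 4 for erythroid (median -1.33), 7 of 7 for lymphocyte (median -0.57) and 4 of 4 for muscle markers (median -4.84), and above 0 in 9 of 10 for melanocyte markers (median 0.17). Endothelial and macrophage markers were below 0 in 6 of 8 and 5 of 7. The muscle value rested on supplemented replicate 5, with a mean log2 CPM of 7.41. Muscle levels in the other supplemented libraries ran from -1.5 to -0.135, and those in restricted libraries from -0.35 to 0.79. With the alveolar type 2 level as a covariate 48 of 52 members were above 0, with a median of 0.23. The part of the other lists was not tested. In TPM the direction was less even. Summed means were 8171 ± 822 TPM in restricted and 7779 ± 2599 TPM in supplemented libraries (SD, n = 3 and 6). Class means were slightly higher in supplemented libraries for H1 (262.1 against 256.7), H2A (1537 against 1533) and H3 (1440 against 1426). Those of H2B and H4 were higher in restricted libraries. Hist2h2be had 13.1, 6.26 and 9.31 CPM in restricted and 2.63 to 7.45 CPM in supplemented libraries, which differed by 0.76 on the log2 scale (SE 0.37, adjusted p = 1 by edgeR). Hist1h1b had 5.14, 4.34 and 4.32 CPM in restricted and 2.07 to 4.33 CPM with a median of 2.67 CPM in supplemented libraries, which differed by 0.71 on the log2 scale (SE 0.42, adjusted p = 1 by edgeR). Hist2h3c1 had 162.1, 212.5 and 193.2 CPM in restricted and 88.0 to 198.7 CPM with a median of 125.0 CPM in supplemented libraries, which differed by 0.52 on the log2 scale (SE 0.32, adjusted p = 1 by edgeR).

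**Figure D5:**
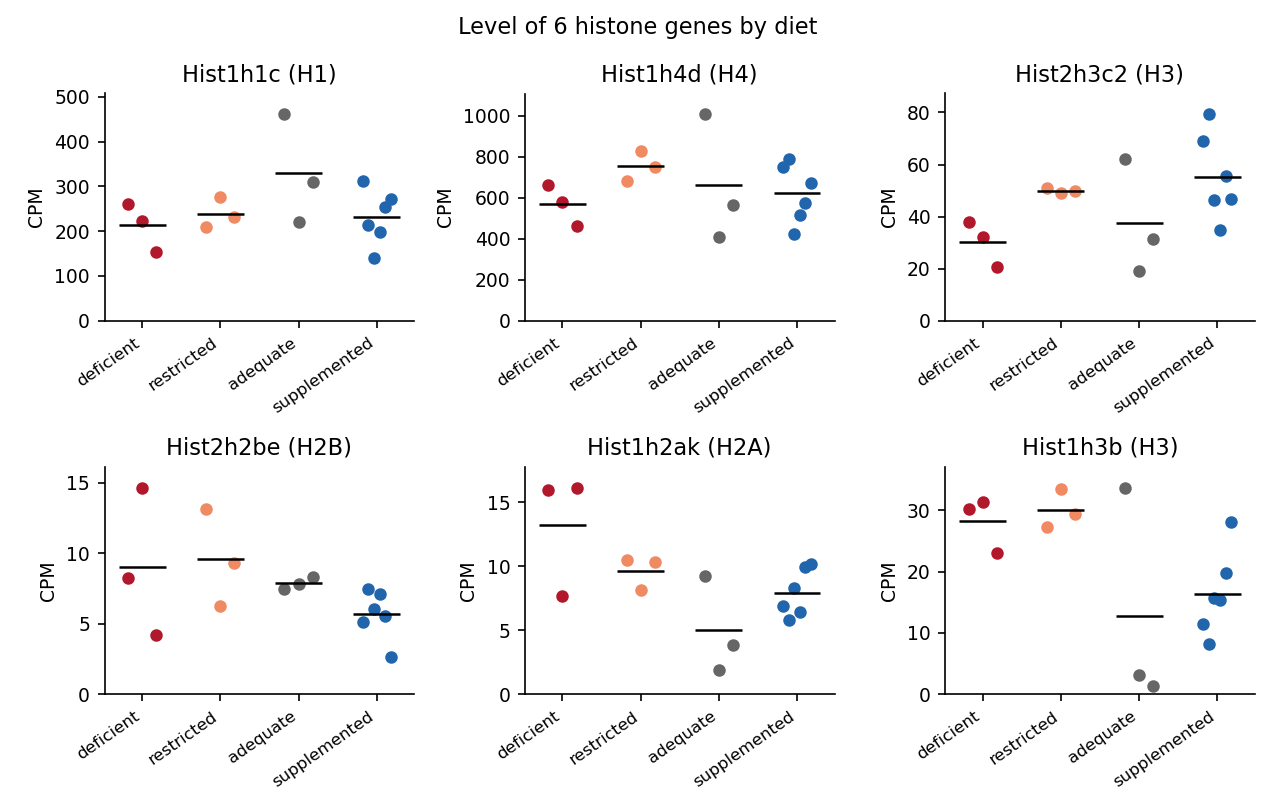
Points give the CPM of 6 histone genes in each library by diet, with a line at the mean. Hist2h3c2 and Hist1h4d have every deficient library below every restricted library, and Hist1h3b lies at 3.06 and 1.41 CPM in adequate replicates 2 and 3 but at 33.7 CPM in adequate replicate 1.

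Asked at once over the 4 diets, edgeR called 0 of 52 members and 0.00625% of all genes. DESeq2 called 0 members and 1.69% of genes. In edgeR 1 member had an unadjusted p under 0.05, and the count over all genes is not given here. That member was Hist1h2ak, with an adjusted p = 0.514 by edgeR across all genes. Hist2h3c2 followed with an adjusted p = 0.561 and Hist1h1c with an adjusted p = 0.663, both by edgeR.

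The machinery around histone mRNA was described from lists of related genes, and 0 genes of these lists were called in any of the 6 comparisons. Slbp, the stem-loop binding protein, had 36.7, 43.9 and 29.5 CPM in deficient, 35.1, 41.8 and 39.8 CPM in restricted, 45.6, 27.5 and 32.3 CPM in adequate and 28.5 to 51.4 CPM in supplemented libraries. Its groups overlapped throughout, with log2 fold changes between -0.08 and 0.18 (edgeR adjusted p of 0.917 or more). Npat, the cyclin E target that activates histone transcription, averaged 28.1 ± 3.55, 22.2 ± 3.71, 23.0 ± 5.17 and 22.6 ± 6.87 CPM in deficient, restricted, adequate and supplemented libraries. Of the 18 processing and decay genes tested, 7 were above and 11 below 0 in deficient against restricted libraries, with a median of -0.04. Upf1, a helicase that takes part in histone mRNA decay, averaged 111.6 ± 8.63, 114.1 ± 11.9, 85.7 ± 19.4 and 109.6 ± 9.13 CPM along the 4 diets. Its adequate values were 64.8, 89.2 and 103.1 CPM, lowest in adequate replicate 1. They overlapped the restricted values of 122.7, 119.1 and 100.6 CPM. Upf1 had a log2 fold change of 0.41 in restricted over adequate libraries (SE 0.17, edgeR adjusted p = 0.486). Cstf2, a cleavage factor subunit, had 0.40 in the same comparison (SE 0.17, edgeR adjusted p = 0.492).

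S-phase genes were set beside the histone genes. In deficient against restricted libraries 20 of 21 were below 0, with a median of -0.29. An unadjusted edgeR p under 0.05 was found for 2 of the 21, and for 1191 of all 16001 genes. The mean log2 CPM over the S-phase list was 6.07, 6.14 and 5.39 in deficient and 6.12, 6.23 and 6.22 in restricted libraries. Deficient replicate 3, with the highest alveolar marker level, was the low one, while deficient replicate 2 lay within the restricted range and deficient replicate 1 just below it. Cdk2, the kinase that phosphorylates Npat, averaged 240.0 ± 40.4 CPM in deficient and 343.2 ± 36.2 CPM in restricted libraries, which differed by -0.52 on the log2 scale (SE 0.19, adjusted p = 0.649 by edgeR). Cdc6, which licenses replication origins, had -0.36 (SE 0.32, edgeR adjusted p = 0.859). In restricted against adequate libraries 19 of 21 were above 0, with a median of 0.20, and Cdc6 had 0.80 (SE 0.32, edgeR adjusted p = 0.472). The adequate levels of the list were 6.25, 5.35 and 6.08, so adequate replicate 2 was the low one. In supplemented against adequate libraries 17 of 21 were above 0, with a median of 0.12, while 18 of 52 histone members were. That histone count rested on adequate replicate 1: without it 47 of 53 members were above 0. No such count is given here for the S-phase list.

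The list of histone transcription regulators and chaperones had 9 of 12 genes below 0 in deficient against restricted libraries, with a median of -0.21. Asf1b, an H3-H4 chaperone of S phase, had 42.0, 36.6 and 16.3 CPM in deficient and 50.6, 45.7 and 55.5 CPM in restricted libraries, which differed by -0.67 on the log2 scale (SE 0.31, adjusted p = 0.663 by edgeR). Hjurp, the chaperone of the centromeric histone Cenpa, had -0.43 (SE 0.18, edgeR adjusted p = 0.656).

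Genes listed as replication-independent histones were also high in adequate replicate 1. Their mean log2 CPM over 9 genes was 5.70, 5.69 and 5.64 in deficient, 5.89, 5.68 and 5.67 in restricted, 6.38, 5.56 and 5.81 in adequate and 5.46 to 5.72 in supplemented libraries. In deficient against adequate libraries 8 of 9 were below 0, with a median of -0.47, and in deficient against restricted libraries 5 of 9, with a median of -0.07. H2afz, the gene of the variant H2A.Z, had 88.6, 69.3 and 54.6 CPM in deficient and 153.8, 85.2 and 109.7 CPM in adequate libraries, which differed by -0.71 on the log2 scale (SE 0.27, adjusted p = 0.249 by edgeR). H2afj, an H2A variant gene, averaged 28.5 ± 8.09 CPM in supplemented (SD, n = 6) and 47.7 ± 1.99 CPM in adequate libraries (SD, n = 3), which differed by -0.74 on the log2 scale (SE 0.22, adjusted p = 0.322 by edgeR). The adequate values of H2afj were 50.0, 46.4 and 46.8 CPM, close together, where those of H2afz were highest in adequate replicate 1.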

How the data were processed

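The 15 libraries were prepared from ribosome-depleted total RNA with a stranded kit, per the labels' protocols. The authors deposited RSEM expected counts and TPM per Ensembl gene ID; the submitters' processing notes name the build NCBIM37 and the tools RSEM 1.30, Bowtie2 2.2.9 and edgeR. Counting strand and annotation release: not given in the sources used here. Symbols, classes and sequences came from GENCODE M21 and RefSeq tables of GRCm38, matched by ID or symbol, and sequence positions refer to that build only.

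Expected counts were rounded to whole numbers. edgeR 4.0.16 in R 4.3.3 was used with TMM scaling, filterByExpr (16001 genes left) and the quasi-likelihood test in 1 fit over 15 libraries with a mean per diet (11 residual degrees of freedom, biological coefficient of variation 0.461). P-values were adjusted by Benjamini-Hochberg over all genes at 0.05. DESeq2 1.42.0 was run beside it, and other settings were tried. CPM uses TMM-scaled library sizes. Summed levels carry no test. Within diets, 24 library pairs had a chi-square of 25.6 to 309.2 per degree of freedom, so none was the same library sequenced again. That check does not show whether libraries came from separate mice.

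On simulated counts for the deficient and adequate groups (15556 genes), edgeR recovered 13% of 2-fold and 66% of 4-fold changes, with 3 unchanged genes called. Lists and members were chosen with earlier results of these data known. Genes named are the 3 members with the smallest p in each comparison and the 6 in the test over all diets (mean log2 CPM of at least 1), the 2 highest by TPM in each class, Slbp, Npat, and the 2 genes with the smallest p in each related list. Cell type lists are given as levels per library and as counts and medians of fold changes.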

Additional observations from a re-analysis of the deposited data

Results flagged for a closer look

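Among 33 sets of values in the supplemented group (class sums and members named above), 1 had a library far from the others, where chance gives about 1 in 20. Hist1h1b was at 4.33 CPM in supplemented replicate 6 and at 2.07 to 2.79 CPM in the other 5 libraries. The gap was 0.683 of the whole range, above the critical value of 0.625 for 6 libraries.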

How the results depend on the processing

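The count of members called stayed at 0 in all 7 tests under DESeq2, other size factors, no filter on low counts, only the diets compared, and the alveolar covariate. Without adequate 1, supplemented 5 and deficient 3 together, edgeR called 1 member (Hist1h3b) in deficient against adequate and 2 (Hist1h3b and Hist1h1a) in restricted against adequate libraries. Leaving out 1 library at a time gave 0 to 1 calls in those comparisons, the 1 without adequate replicate 1, and 0 in the rest. Hist1h3b in restricted against adequate had a log2 fold change of 0.72 to 3.73 over single left-out libraries. The 18 values of members named in a comparison kept their direction in every setting. These members were picked for a small p in the same libraries, which favours a stable direction.

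The log2 ratio of mean summed CPM moved by more than the within-diet SD of 0.466 in comparisons with the adequate diet. Deficient over adequate turned to 0.24 in TPM and to 0.38 without the 3 libraries, and ran from -0.64 to 0.17 over single left-out libraries. Restricted over adequate was 0.69 in TPM and 0.56 without the 3 libraries, and ran from -0.26 to 0.56. Supplemented over adequate was 0.62 in TPM and 0.29 without the 3 libraries, and ran from -0.49 to 0.33. In each, the single library whose absence moved the ratio by more than that SD was adequate replicate 1. The cause was not tested. No paired analysis was possible because the labels give no replicate numbers: sample titles carry running numbers with none shared between diets, and the replicate numbers used here follow accession order and only name libraries. The percent of protein-coding counts as a scale was added after the data were seen.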
